A study of Mus musculus with 26 samples.

Results

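The genes of this account were Mpo, Elane, Prtn3, Ctsg and Ms4a3, 5 of the 19937 mouse genes that the array annotation ties to a probe set of 1 symbol. They were chosen by name, and each had 1 such probe set, so its value on an array is 1 number on the log2 scale. Mpo encodes myeloperoxidase, Elane neutrophil elastase, Prtn3 proteinase 3 and Ctsg cathepsin G, the cargo of the primary (azurophil) granules of neutrophils. Ms4a3 is neither a protease nor a peroxidase: it encodes a membrane protein that spans the bilayer several times and is used as a marker of granulocyte-macrophage progenitors.

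The study hybridised RNA from 26 mouse samples of strain C57BL/6 to Affymetrix gene arrays, in 8 groups. Wild-type bone marrow gave sorted cells of both kinds: long-term haematopoietic stem cells (LT-HSC, 4 samples) and granulocyte-macrophage progenitors (GMP, 4 samples). The other groups were immortalized lines grown in liquid culture, with or without doxycycline (dox), named by the cell they came from. From LT-HSC-derived lines came 2 samples with dox and 3 without at 48 h, and 3 of each at 72 h. GMP-derived lines gave 4 samples with dox and 3 without at 48 h. There were 3 LT-HSC-derived lines (B6-1, B6-2 and B6-3) and 4 GMP-derived lines (B6-1, B6-2, B6-3 and F6-6). The labels do not say whether lines of the same name from different origins are related, and origins were compared without pairing. The series concerns MLL-AF9, a leukaemia fusion of Mll with Af9. No source used here gives which gene dox switched in the lines, whether the hours ran from its addition or its withdrawal, the age of the animals or whether a line was 1 clone. The labels call the samples biological replicates. Array medians lay between 5.81 and 5.91 and array maxima between 12.96 and 13.08. Of 10 measured LT-HSC markers, 9 lay above the array median in sorted LT-HSC (Hoxb5 did not) and 5 did in sorted GMP. Of 10 GMP markers, Ms4a3 among them, 10 did so in sorted GMP and 6 in sorted LT-HSC. None of 8 lymphoid markers lay above the array median in any group.

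Primary granules form at the promyelocyte stage, when the progenitors of neutrophils transcribe these genes strongly for a short time. Elastase, proteinase 3 and cathepsin G are serine proteases that cathepsin C activates by removing a dipeptide, and serglycin holds them in the granule. Myeloperoxidase takes up haem in the endoplasmic reticulum with the help of calreticulin and calnexin, and makes hypochlorous acid from hydrogen peroxide and chloride. As cells mature further, transcription of the primary granule genes falls and that of the secondary granule genes (Ltf, Camp, Lcn2) rises.

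C/EBP, ETS (PU.1), RUNX and MYB factors are known to act at genes of this kind, so the windows from 250 bases before to 50 bases after each annotated start were read from RefSeq (GRCm38.p6) and searched on both strands for TTGCNNAA (C/EBP), GAGGAA (ETS), TGTGGT (RUNX) and CAACNG (MYB). All 5 genes had a window. GAGGAA was found in 5 of 5 windows, against 28.3% of all 32851 windows of that length. CAACNG was found in 3 of 5 (35.0% of all), TGTGGT in 1 of 5 (16.8%) and TTGCNNAA in 1 of 5 (10.8%), and no matches overlapped each other. The windows of Elane and Prtn3 are shown because the 2 genes are neighbours and both held GAGGAA followed by CAACGG close to the start, and that of Ctsg because it held the most matches. Elane lies on the plus strand at chr10:79886062-79886361, Prtn3 on the plus strand at chr10:79879417-79879716 and Ctsg on the minus strand at chr14:56102525-56102824. Capitals mark the matches, and those in Ctsg that read ACCACA and CAGTTG are TGTGGT and CAACNG on the opposite strand.
Elane: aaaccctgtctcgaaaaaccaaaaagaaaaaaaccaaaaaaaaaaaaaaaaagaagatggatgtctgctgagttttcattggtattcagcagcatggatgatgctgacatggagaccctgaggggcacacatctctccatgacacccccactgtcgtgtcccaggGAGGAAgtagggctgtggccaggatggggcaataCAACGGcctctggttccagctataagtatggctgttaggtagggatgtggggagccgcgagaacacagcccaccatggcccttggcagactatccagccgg
Prtn3: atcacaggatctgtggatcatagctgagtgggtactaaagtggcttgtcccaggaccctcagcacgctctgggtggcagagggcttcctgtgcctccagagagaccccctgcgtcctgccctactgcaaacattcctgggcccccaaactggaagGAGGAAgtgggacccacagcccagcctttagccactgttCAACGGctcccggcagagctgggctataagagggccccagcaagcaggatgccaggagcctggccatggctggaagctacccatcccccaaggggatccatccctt
Ctsg: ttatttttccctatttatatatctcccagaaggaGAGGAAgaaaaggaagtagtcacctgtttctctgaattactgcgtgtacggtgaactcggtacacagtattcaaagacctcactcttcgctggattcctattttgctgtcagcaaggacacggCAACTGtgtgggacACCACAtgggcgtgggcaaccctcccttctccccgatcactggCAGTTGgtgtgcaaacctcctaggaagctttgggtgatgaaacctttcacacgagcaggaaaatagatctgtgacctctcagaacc
Counted from the start, GAGGAA began at -85 in Elane and -95 in Prtn3, and CAACGG at -51 in Elane and -56 in Prtn3. In Ctsg, GAGGAA began at -216, CAACTG at -93, the opposite-strand TGTGGT at -79 and the opposite-strand CAACNG at -36. Mpo held GAGGAA at -247 and -224, and Ms4a3 held GAGGAA at 36 with TTGCNNAA directly after it at 42. A match is a run of letters and was not tested as a binding site.

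The first comparison, sorted GMP against sorted LT-HSC, set the level of each gene in a stem cell against that in a progenitor of granulocytes. All 5 genes were higher in GMP, from 7.78-fold for Prtn3 to 51.7-fold for Ctsg. In sorted LT-HSC, Mpo read 8.82, 8.64, 7.94 and 7.98 on the log2 scale, and in sorted GMP 12.20, 12.19, 12.19 and 12.18. The GMP arrays lay within a very narrow band and every LT-HSC array lay far below it. The difference was 3.84 ± 0.15 (SE, n = 4 and 4; adjusted p = 4.43e-16), a 14.4-fold higher signal. Array maxima lay between 12.96 and 13.08, and whether signals as high as those of Mpo still rise in step with its RNA was not tested. In bulk samples such as these, more cells of a type and more RNA per cell cannot be told apart.

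Among the serine proteases, Ctsg read 6.52, 5.52, 5.58 and 5.51 in LT-HSC and 11.42, 11.50, 11.55 and 11.43 in GMP. One LT-HSC array stood above the other three, yet no LT-HSC array came near the GMP arrays. The difference of 5.69 ± 0.16 (adjusted p = 1.38e-18) ranked 3 among all 19937 genes by size. Elane, whose product cleaves elastin and bacterial proteins, read 5.94, 5.53, 6.15 and 5.36 in LT-HSC and 10.49, 10.59, 10.66 and 10.48 in GMP. Its groups did not overlap, and the difference was 4.81 ± 0.15 (28.1-fold; adjusted p = 8.78e-18). Prtn3 read 7.01, 7.08, 6.16 and 6.90 in LT-HSC and 9.66, 9.77, 9.87 and 9.69 in GMP. The groups were again apart, with the smallest difference of the 5, 2.96 ± 0.14 (adjusted p = 1.67e-14).

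Ms4a3 read 5.40, 5.67, 5.13 and 4.39 in LT-HSC and 10.68, 10.76, 10.75 and 10.56 in GMP. LT-HSC arrays spread over more than 1 log2 unit while GMP arrays lay close together, with no overlap. The difference was 5.54 ± 0.17 (46.6-fold; adjusted p = 5.12e-18). Thus 5 of 5 genes were called higher, with a median difference of 4.81, where 32.1% of all genes were called in either direction, 16.8% higher and 15.3% lower, and the median of all genes was -0.01. Elane, Ctsg and Ms4a3 had LT-HSC means of 5.74, 5.78 and 5.15, at or below the array medians, and whether these lay above background was not analysed here. Monocyte and macrophage markers moved with the 5 genes here: 7 of 8 measured were called higher in GMP, and their mean per array ran from 5.31 to 5.69 in LT-HSC and from 7.72 to 8.04 in GMP. Mast cell and basophil markers were higher in 6 of 9, eosinophil markers in 5 of 6 and late neutrophil markers in 4 of 12. Their part in the result was not tested.

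**Figure D1:**
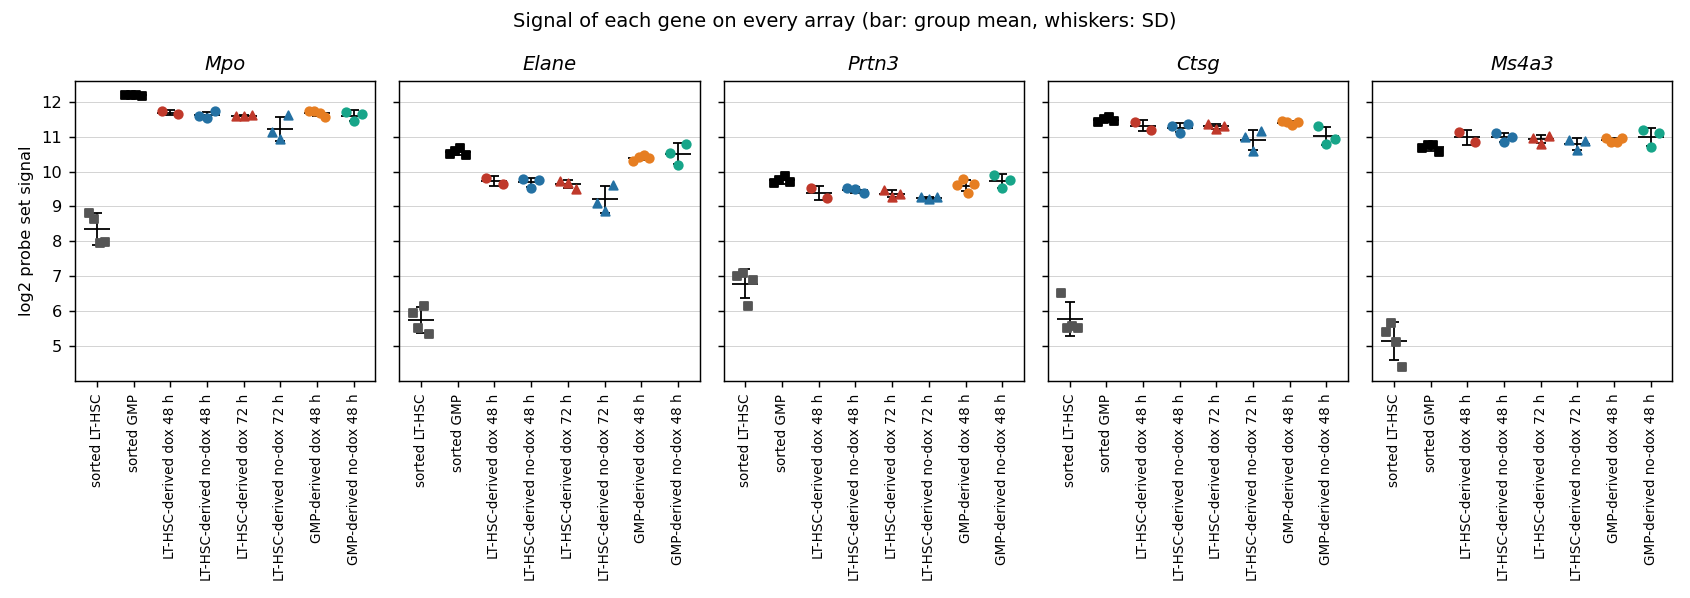
Signal on the log2 scale of each of the 5 genes on every array (points), by group, with the group mean (bar) and SD (whiskers). In every panel the 4 sorted LT-HSC arrays lie lowest and overlap no other group, and in the Elane panel the LT-HSC-derived groups lie below the GMP-derived groups. The share of all genes separated in this way was not counted.

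The neighbours of the 5 genes on their chromosomes, taken as the 3 nearest measured genes on each side in RefSeq order, gave values for the same comparison. Prtn3 and Elane lie side by side with no gene between them, and of the other neighbours Plppr3 and Ptbp1 differed by 0.63 ± 0.078 and 0.22 ± 0.066, both called, while Misp, Med16, R3hdm4 and Kiss1r were not called. Near Mpo lie the genes of 2 other peroxidases, Lpo (lactoperoxidase, 0.57 ± 0.11) and Epx (eosinophil peroxidase, 0.85 ± 0.32), both called higher. The other called neighbours of Mpo were Tspoap1 (0.57 ± 0.074), Mks1 (0.38 ± 0.084) and Mir142 (0.36 ± 0.11), so 5 of 6 were higher, and Rnf43 was not called. Beside Ctsg, in a cluster of granule serine protease genes, Mcpt8, a basophil protease, was 3.83 ± 0.46 higher (adjusted p = 2.51e-07), whereas Mcpt2, Mcpt4, Gzme, Gzmd and Gzmg were not called. Ms4a2, the beta chain of the IgE receptor and the gene next to Ms4a3, was 1.92 ± 0.40 higher (adjusted p = 4.53e-04). Of its other neighbours Ms4a6d (1.29 ± 0.39), Ms4a4d (0.36 ± 0.12) and Oosp1 (0.34 ± 0.12) were also higher, and Oosp2 and Oosp3 were not called. The large differences of Elane, Prtn3 and Ctsg were thus not shared by every gene around them.

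In culture, all 5 genes were far above sorted LT-HSC, in lines from either cell of origin. The lowest of the 18 cultured arrays lay above the highest sorted LT-HSC array by 2.11 for Mpo, 2.73 for Elane, 2.13 for Prtn3, 4.08 for Ctsg and 4.94 for Ms4a3. The share of all genes separated in this way was not counted. The lines differ from sorted cells in both immortalization and culture, which cannot be told apart here. LT-HSC-derived lines (48 h, dox) were compared with sorted LT-HSC, separate wild-type samples of the cell type named as their origin. Ms4a3 read 11.13 and 10.83 and Ctsg 11.42 and 11.19 in these lines, far above the LT-HSC arrays given before. Their differences were 5.83 ± 0.21 (adjusted p = 2.00e-16) and 5.52 ± 0.20 (adjusted p = 2.23e-16). Elane read 9.82 and 9.63, Mpo 11.74 and 11.64 and Prtn3 9.53 and 9.24, again with no overlap, and the differences were 3.98 ± 0.18, 3.34 ± 0.18 and 2.596 ± 0.17. All 5 genes were called higher, where 29.2% of all genes were called, 14.6% higher and 14.6% lower. LT-HSC markers were lower in the same comparison in 10 of 10 measured, with a median of -1.74, and late neutrophil markers were higher in 7 of 12 and lower in 1. Monocyte and macrophage markers were higher in 5 of 8, with array means of 7.35 to 7.41 against 5.31 to 5.69, as were 5 of 9 mast cell and basophil markers and 3 of 6 eosinophil markers. The part of this shift in cell markers in the result was not tested.

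Against sorted GMP, the lines differed gene by gene. Mpo was below the sorted GMP range on 18 of 18 cultured arrays, Elane on 16, Prtn3 on 15 and Ctsg on 16. Ms4a3 went the other way and was above the sorted GMP range on 16 of 18. That range comes from 4 arrays, and for Mpo it was only 12.18 to 12.20. Several cultured arrays share a line, so these counts are descriptions. The share of all genes outside the range on as many arrays was not counted. In GMP-derived lines with dox, Mpo read 11.75, 11.72, 11.69 and 11.57, below all 4 sorted GMP arrays. The difference was -0.51 ± 0.15 (adjusted p = 0.0152), and Mpo was the 1 gene of 5 called, where 19.8% of all genes were called (9.76% lower). Elane (-0.16 ± 0.15), Prtn3 (-0.15 ± 0.14), Ctsg (-0.08 ± 0.16) and Ms4a3 (0.21 ± 0.17) were not called, and their 95% intervals together ran from -0.47 to 0.56. Arrays of Elane and Ms4a3 did not overlap those of sorted GMP, while arrays of Prtn3 and Ctsg did. Of the markers of other cells, 5 of 9 mast cell and basophil markers were lower than in sorted GMP (median -1.53) and 4 of 12 late neutrophil markers were higher and 1 lower. Eosinophil markers were lower in 6 of 6, with array means of 5.21 to 5.99 against 6.37 to 6.83. Monocyte and macrophage markers were lower in 4 of 8 (median -0.44). Of the GMP markers, Fcgr3, Irf8, Csf1r, Csf3r, Kit, Cd34 and Ly86 were lower, and Ms4a3, Cebpa and Csf2ra were not called. The part of these marker lists in the result was not tested.

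Without dox, GMP-derived lines read 11.72, 11.43 and 11.65 for Mpo, again below every sorted GMP array. The difference was -0.59 ± 0.16 (adjusted p = 0.00803), and Mpo was again the 1 gene called of 5, with 23.5% of all genes called (10.8% higher, 12.7% lower). Without line B6-3 of the no-dox group the adjusted p for Mpo was 0.0574. Ctsg read 11.30, 10.79 and 10.93, all below the sorted GMP arrays, and differed by -0.47 ± 0.17 (adjusted p = 0.0529), just outside the threshold. It was within the threshold at 0.0381 when dim genes were left out, at 0.0119 when only the 2 groups were fitted, at 0.0443 with a trended prior and at 0.0237 without line B6-2 of the no-dox group. Late neutrophil markers stood far apart in this comparison: 10 of 12 were higher without dox than in sorted GMP (median 3.03), with array means of 9.58 to 9.78 against 6.36 to 7.61. Eosinophil markers were lower in 3 of 6, mast cell and basophil markers in 2 of 9, and monocyte and macrophage markers were higher in 3 of 8 and lower in 2. Of the GMP markers, Irf8, Kit, Cd34 and Ly86 were lower and the others were not called. Their part in the Mpo result was not tested.

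In LT-HSC-derived lines (48 h, dox), Elane lay below the sorted GMP arrays and was the 1 gene called of 5, at -0.83 ± 0.18 (adjusted p = 0.00311), where 11.8% of all genes were called (5.41% higher, 6.34% lower). The call was lost without line B6-3 (-0.74, adjusted p = 0.0751), which leaves 1 array in this group, assumed to vary like the arrays of the other groups. Late neutrophil markers were higher than in sorted GMP in 5 of 12 and GMP markers lower in 7 of 10, as were 3 of 8 monocyte and macrophage markers, and their part in the result was not tested. Mpo differed by -0.50 ± 0.18 (adjusted p = 0.0763), with no overlap between the arrays, and passed the threshold at 0.0126 with array weights and at 0.00166 when only the 2 groups were fitted. Prtn3 (-0.36 ± 0.17; 0.198), Ctsg (-0.17 ± 0.20) and Ms4a3 (0.29 ± 0.21) were not called. The comparisons with sorted GMP share those 4 arrays, so their values stand side by side and are not independent of each other.

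**Figure D2:**
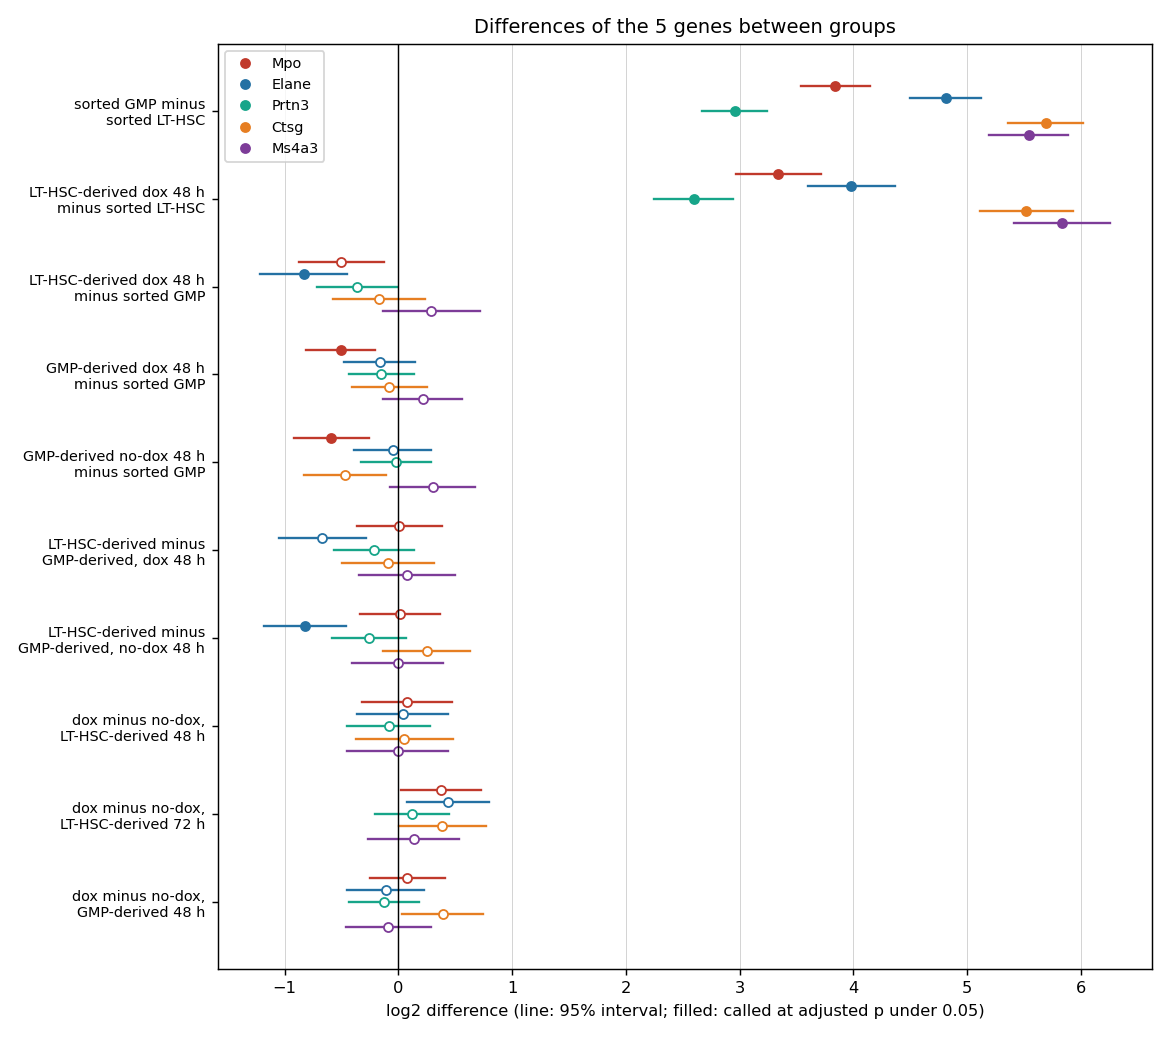
Log2 difference (point) and 95% interval (line) of each gene in 10 comparisons, with filled points for genes called at an adjusted p under 0.05. The 2 comparisons with sorted LT-HSC hold all 5 genes between 2.596 and 5.83, and in the others the called genes are Mpo or Elane, between -0.51 and -0.83.

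The origin of the lines was compared at 48 h. Elane separated them. Without dox, it read 9.78, 9.53 and 9.76 in LT-HSC-derived lines and 10.54, 10.19 and 10.78 in GMP-derived lines. The groups did not overlap, and Elane was -0.82 ± 0.17 lower in LT-HSC-derived lines (adjusted p = 0.00402), the 1 gene called of 5, where 6.80% of all genes were called (3.52% higher, 3.28% lower). It remained called under each alternative processing and without any 1 array of the 2 groups, between -0.68 and -0.98. The neighbouring gene Prtn3 read 9.53, 9.51 and 9.38 against 9.91, 9.52 and 9.76. Its groups overlapped, and its difference was -0.26 ± 0.16 (adjusted p = 0.452, 95% interval -0.59 to 0.07). Mpo (0.01 ± 0.17), Ctsg (0.25 ± 0.19) and Ms4a3 (-0.01 ± 0.19) were not called.

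With dox, Elane read 9.82 and 9.63 in LT-HSC-derived lines and 10.30, 10.42, 10.48 and 10.38 in GMP-derived lines, again without overlap. The difference was -0.67 ± 0.18 but missed the threshold (adjusted p = 0.0616), so that 0 of 5 genes were called, where 2.11% of all genes were (1.17% higher, 0.943% lower). Elane passed it at 0.0114 with array weights, at 0.0473 when dim genes were left out and at 0.00958 when only the 2 groups were fitted. Mast cell and basophil markers differed between the same lines. Without dox, 6 of 9 were called higher in LT-HSC-derived lines, with array means of 6.89 to 8.20 against 5.17 to 6.44. Above the array median lay 6 of 9 in LT-HSC-derived and 3 of 9 in GMP-derived lines, and Cma1, Mcpt4 and Tpsb2 lay below it in both. With dox, 1 of 9 was called and array means were 6.59 to 6.67 against 5.16 to 6.08. Late neutrophil markers were lower in LT-HSC-derived lines in 2 of 12 without dox, with array means of 8.51 to 9.11 against 9.58 to 9.78, and higher in 1 of 12 with dox. Their part in the Elane difference was not tested.

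The effect of dox was compared in 3 settings, and 0 of 5 genes were called by limma in any of them. In LT-HSC-derived lines at 48 h, where 0.441% of all genes were called (0.155% higher, 0.286% lower; 1456 genes had an unadjusted p under 0.05), the differences lay between -0.09 for Prtn3 and 0.07 for Mpo. The 95% intervals of the 5 genes together ran from -0.45 to 0.48, which leaves room for changes up to about 1.39-fold. With dox Mpo read 11.74 and 11.64, and without it 11.59, 11.53 and 11.72. These ranges overlapped, as did those of the other four genes. In each of the 5 genes the group means with and without dox were closer than the highest and lowest array of the group without dox. Of the late neutrophil markers, 1 of 12 was lower with dox here (median -0.55), with array means of 8.01 to 8.11 against 8.51 to 9.11, and 1 of 8 monocyte and macrophage markers was lower.

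At 72 h, LT-HSC-derived lines gave higher means with dox for all 5 genes, none past the threshold, where 7.15% of all genes were called (3.43% higher, 3.72% lower; 4025 at an unadjusted p under 0.05). Mpo read 11.59, 11.59 and 11.62 with dox and 11.13, 10.94 and 11.61 without. Elane read 9.73, 9.67 and 9.51 with dox and 9.10, 8.88 and 9.62 without, and Ctsg read 11.37, 11.22 and 11.31 against 10.99, 10.60 and 11.15. In all of these the arrays without dox were the more scattered, with lines B6-2 and B6-3 low and line B6-1 close to the arrays with dox. The arrays overlapped for Mpo and Elane and not for Ctsg. Differences were 0.37 ± 0.17 for Mpo (adjusted p = 0.215), 0.43 ± 0.17 for Elane (0.147) and 0.39 ± 0.19 for Ctsg (0.243). Prtn3 and Ms4a3 differed by 0.12 ± 0.16 and 0.13 ± 0.19. The 95% intervals, not adjusted for the number of genes, were 0.02 to 0.73 for Mpo, 0.07 to 0.79 for Elane and 0.003 to 0.77 for Ctsg. Those of Prtn3 and Ms4a3 ran from -0.21 to 0.45 and from -0.27 to 0.53.

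The array of line B6-1 without dox decided part of this result. Without it the Elane difference at 72 h was 0.64 (adjusted p = 0.0235) and 1 gene was called. With array weights, which count arrays less where their genes as a whole are scattered, Elane (0.53, adjusted p = 0.0172) and Mpo (0.46, adjusted p = 0.031) were both called. Which arrays counted less was not examined. Late neutrophil markers, of which 5 of 12 were called lower with dox at 72 h, varied over the same arrays: their mean was 9.98 in line B6-2, 9.54 in B6-3 and 8.63 in B6-1 without dox, and 7.96 to 8.39 with dox. Among the arrays without dox, Mpo, Elane and Ctsg were each highest in B6-1, then B6-2, then B6-3. The neutrophil marker mean was highest in B6-2, then B6-3, then B6-1. Monocyte and macrophage markers were lower with dox in 4 of 8. Their part in the result was not tested.

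In GMP-derived lines the difference with dox lay between -0.13 and 0.08 for 4 of the genes and was largest for Ctsg, where 10.9% of all genes were called (5.75% higher, 5.18% lower; 4196 at an unadjusted p under 0.05). Ctsg read 11.45, 11.41, 11.32 and 11.41 with dox and 11.30, 10.79 and 10.93 without, and the groups did not overlap. Its difference was 0.39 ± 0.17 (adjusted p = 0.185, 95% interval 0.03 to 0.75). Mpo (0.08 ± 0.16), Elane (-0.11 ± 0.16), Prtn3 (-0.13 ± 0.15) and Ms4a3 (-0.09 ± 0.18) had intervals that together ran from -0.46 to 0.41. In these same lines the late neutrophil markers were lower with dox in 9 of 12, with a median of -2.09 and array means of 7.32 to 7.45 with dox against 9.58 to 9.78 without, and 5 of 8 monocyte and macrophage markers were lower.

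Dox and no-dox arrays of a line could be paired in 8 cases from 6 lines, some of them the same line at both times. Mpo was higher with dox in 8 of 8 pairs, by 0.02 to 0.65, and Ctsg in 8 of 8, by 0.09 to 0.63. Elane, Prtn3 and Ms4a3 were each higher in 5 of 8. The share of all genes that went 1 way in 8 of 8 pairs was not counted, and pairs of the same line are not independent. Elane ran from -0.31 to 0.79, with its lowest values in the GMP-derived lines F6-6 and B6-2 and its highest in LT-HSC-derived lines B6-3 and B6-2 at 72 h. With the line as a term of the fit, 0 of 5 genes were called in each of the 3 comparisons. The difference of the dox effect between origins at 48 h was not called for any of the 5 (0.231% of all genes were, 0.161% higher and 0.0702% lower), nor that between 72 h and 48 h in LT-HSC-derived lines (0 of all genes). For Elane these differences of differences were 0.15 ± 0.25 and 0.40 ± 0.26, and for Ctsg -0.34 ± 0.27 and 0.33 ± 0.28. Between 48 h and 72 h, 0 of 5 genes were called with dox (0 of all genes by limma, 450 at an unadjusted p under 0.05) or without (0.181% of all genes, 0.120% higher and 0.0602% lower). Without dox, Elane differed by -0.49 ± 0.17 (adjusted p = 0.24; 0.0437 with array weights), Mpo by -0.39 ± 0.17 (0.345) and Ctsg by -0.34 ± 0.19 (0.444).

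**Figure D3:**
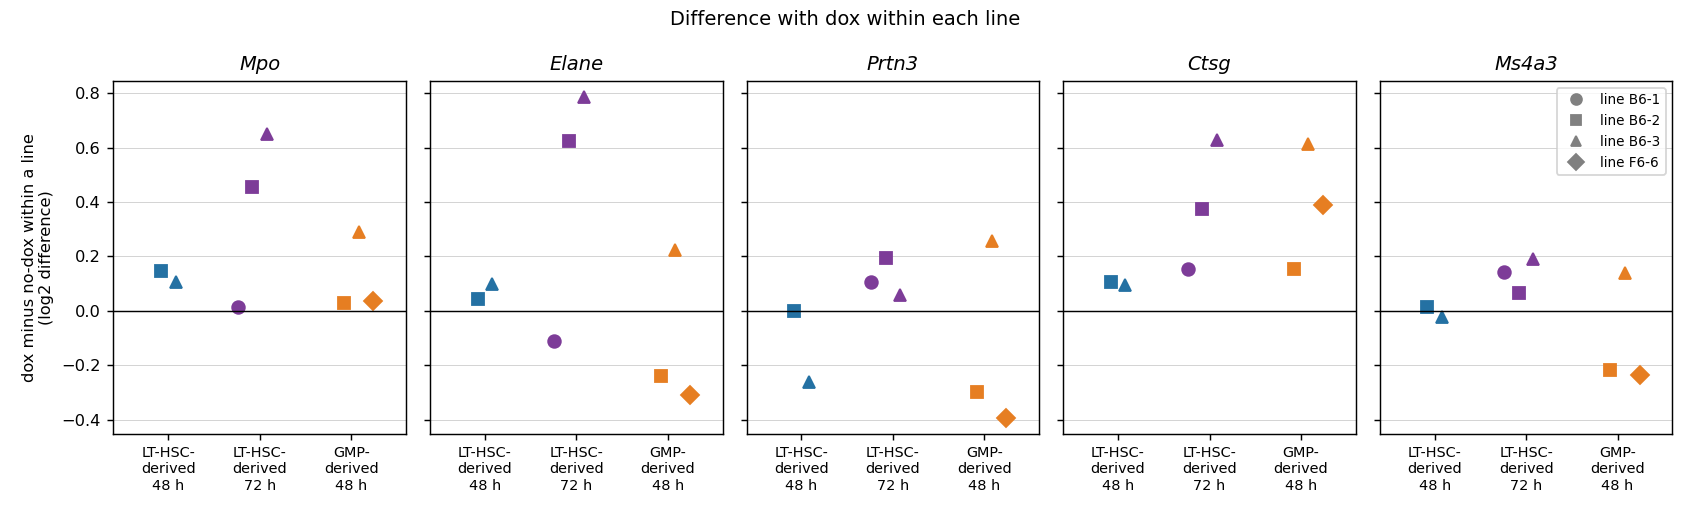
Difference between the array with dox and the array without dox of the same line, on the log2 scale, for each gene (panels), by origin and time (columns and colours) and line (symbols). All 8 points lie above 0 for Mpo and Ctsg, and 5 of 8 do for Elane, Prtn3 and Ms4a3. The share of all genes with 8 points on 1 side was not counted.

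Ordered by group mean, Mpo was highest in sorted GMP (12.19 ± 0.011, SD) with no overlap with the next group, then lay between 11.69 and 11.60 in 5 cultured groups whose neighbours in the order overlapped, then at 11.23 ± 0.34 in LT-HSC-derived lines at 72 h without dox, and lowest in sorted LT-HSC (8.35 ± 0.45). Elane fell into 3 steps: sorted GMP and GMP-derived lines between 10.56 and 10.39, LT-HSC-derived lines between 9.72 and 9.20, and sorted LT-HSC at 5.74 ± 0.36, with overlap between groups next to each other within a step and none between steps. Within the first step, the highest array of GMP-derived lines with dox (10.477) lay just below the lowest of sorted GMP (10.484). Prtn3 ran without a gap from 9.75 ± 0.095 in sorted GMP to 9.25 ± 0.032 in LT-HSC-derived lines at 72 h without dox, each group overlapping the next, before sorted LT-HSC at 6.79 ± 0.42. Ctsg likewise ran from 11.48 ± 0.060 in sorted GMP to 10.91 ± 0.29 before sorted LT-HSC at 5.78 ± 0.49. In Ms4a3 the 6 cultured groups came first, between 10.99 and 10.79, then sorted GMP at 10.69 ± 0.092 and sorted LT-HSC last at 5.15 ± 0.55. The range of the 6 cultured group means was 1.31 for Elane, 0.46 to 0.48 for Mpo, Prtn3 and Ctsg, and 0.20 for Ms4a3, beside a median of 0.24 over all genes.

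Genes whose products work with the granule proteins were counted in the same comparisons. Of all genes, 16.8% were called higher and 15.3% lower in sorted GMP than in LT-HSC. With dox, 0.441% were called at 48 h and 7.15% at 72 h in LT-HSC-derived lines, and 10.9% in GMP-derived lines. Among 11 measured partners of the primary granule, 8 were higher and 2 lower in sorted GMP than in LT-HSC (median 1.64). Ctsc, the activating protease, was 1.64 ± 0.21 higher, Plac8 3.03 ± 0.096 higher, Lyz2 (lysozyme) 1.81 ± 0.32 higher and Srgn (serglycin) 0.23 ± 0.076 higher, while Cd63, a granule membrane protein, was lower by -0.19 ± 0.066. With dox 0 of 11 were called in LT-HSC-derived lines at 48 h. At 72 h, 2 of 11 were higher and 2 lower, and in GMP-derived lines 0 were higher and 3 lower. Ctsc was lower by -1.29 ± 0.24 (adjusted p = 0.00126) at 72 h and by -1.30 ± 0.22 (adjusted p = 2.80e-04) in GMP-derived lines, and Lyz2 by -1.28 ± 0.37 and -1.78 ± 0.34. The other called partners, picked after their values were seen, were Nkg7 (1.05 ± 0.27 at 72 h) and Prss57, the fourth neutrophil serine protease, which was higher by 0.70 ± 0.16 at 72 h and lower by -0.82 ± 0.15 in GMP-derived lines.

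Protease inhibitors were measured in 6 of 9 cases. Cstb (cystatin B), 1 of the 6, acts on cysteine proteases and not on elastase, proteinase 3 or cathepsin G. Serpinb1a, which blocks elastase, proteinase 3 and cathepsin G, was 2.31 ± 0.11 higher in sorted GMP than in LT-HSC, and Slpi, an elastase inhibitor, 2.50 ± 0.19 higher. In all, 3 of 6 were higher, Cstb among them, and 1, Serpinb6a, was lower (-0.9995 ± 0.20). With dox, Serpinb1a was lower in GMP-derived lines by -0.38 ± 0.12 (adjusted p = 0.0447) and Cstb (cystatin B) by -0.53 ± 0.11 there and by -0.72 ± 0.11 in LT-HSC-derived lines at 72 h. Of the 6 inhibitors, 0 were called at 48 h in LT-HSC-derived lines, where 0.441% of all genes were. Against sorted GMP, 3 of 6, Cstb among them, were higher and 0 lower in each of the 3 groups of lines compared with it. Serpinb1a was higher by 0.66 ± 0.11 in GMP-derived lines with dox, 1.04 ± 0.12 in those without and 0.53 ± 0.14 in LT-HSC-derived lines.

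Of 10 measured genes of Mpo folding and haem supply, 5 were higher and 2 lower in sorted GMP. Alas1, the first enzyme of haem synthesis, was higher by 2.85 ± 0.11, Calr (calreticulin) by 0.99 ± 0.076, Pdia3 by 0.57 ± 0.066, Hsp90b1 by 0.46 ± 0.049 and Canx (calnexin) by 0.23 ± 0.048. The 2 lower genes, named after their values were seen, were the haem enzymes Ppox and Urod (-0.27 ± 0.071 and -0.21 ± 0.077). None of the 10 was called with dox in any of the 3 comparisons. Of all genes, 0.441% were called at 48 h and 7.15% at 72 h in LT-HSC-derived lines, and 10.9% in GMP-derived lines. Calr was lower in GMP-derived lines than in sorted GMP, by -0.66 ± 0.076 with dox and -0.70 ± 0.082 without, and in LT-HSC-derived lines (48 h, dox), by -0.67 ± 0.093. Against sorted GMP, 19.8% of all genes were called in GMP-derived lines with dox, 23.5% in those without and 11.8% in the LT-HSC-derived lines. Over the 10 genes, 4 were lower and 1 higher in GMP-derived lines with dox, 5 lower and 3 higher in those without, and 1 lower in the LT-HSC-derived lines. Alas1 was among the higher ones without dox (0.43 ± 0.12), and Fech, named after its values were seen, was higher with dox (0.35 ± 0.12) and without (0.38 ± 0.13). Related peroxidases and granule serine proteases were higher in sorted GMP in 4 of 8 measured (Mcpt8, Prss34, Epx and Lpo), and 0 of 8 were called with dox in any of the 3 comparisons, beside the same shares of all genes with dox. Between origins without dox, where Elane was lower in LT-HSC-derived lines, 3 of 8 went the other way: Mcpt8 was higher by 2.92 ± 0.53, Gzmb by 2.23 ± 0.62 and Prss34 by 1.97 ± 0.40. In that comparison 3.52% of all genes were higher.

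**Figure D4:**
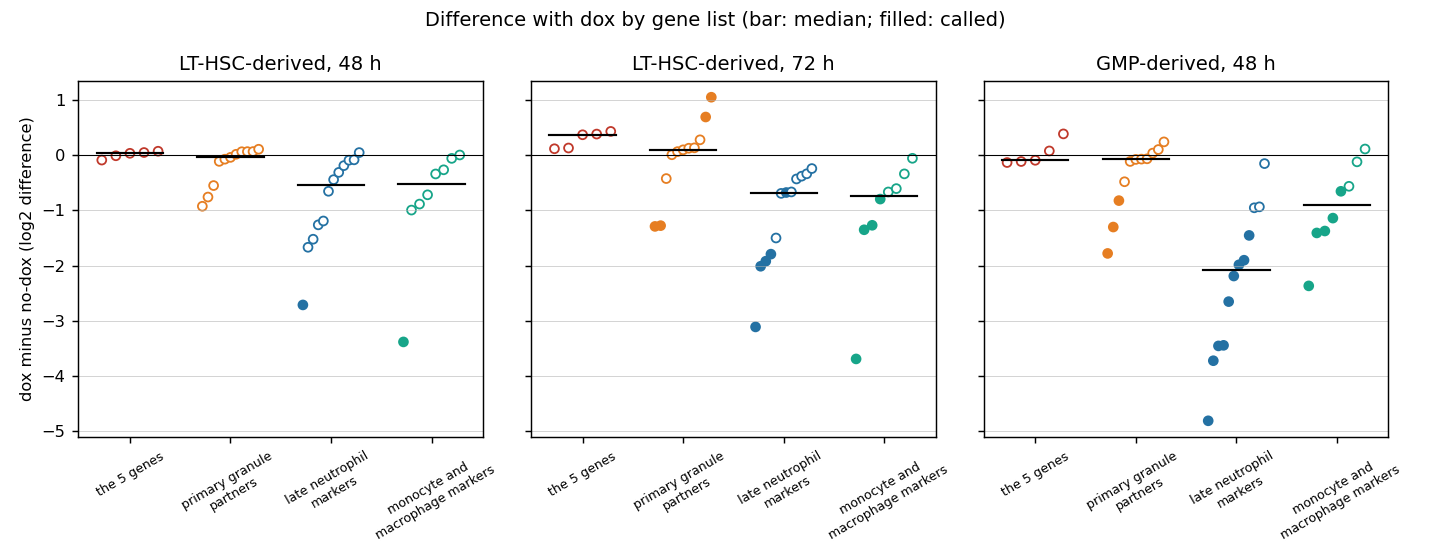
Difference with and without dox on the log2 scale for the 5 genes and 3 gene lists (points, filled where called; bar, median) in the 3 dox comparisons. The 5 genes lie between -0.13 and 0.43 in all panels with no filled point, while 9 of 12 late neutrophil markers are filled and below 0 in GMP-derived lines.

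The genes most like each of the 5 were taken as those with the highest Pearson correlation among 670 genes. The group means of these genes, sorted cells included, spanned at least 2 log2 units. All arrays share the platform and the processing, and the 4 sorted LT-HSC arrays stand apart from all others in each of the 5 genes. Ctsg was most like Atp8b4 (r = 0.995), Ap3s1 (0.991) and Ms4a3 (0.988), and Ms4a3 most like Atp8b4 (0.994), Clec12a (0.991) and Cd53 (0.990). Mpo was most like Ctsg (0.984), Plac8 (0.980) and Atp8b4 (0.979), Prtn3 like Anxa3 (0.984), Mpo (0.979) and Cst7 (0.978), and Elane like B4galnt1 (0.980), Anxa3 (0.979) and Mpo (0.970). Over the 18 cultured arrays, with the same 670 genes, the pairs loosened unevenly. Some of the 670 may span 2 log2 units only through the sorted groups, and the cultured group means of Ms4a3 spanned only 0.20. Mpo was still most like Ctsg (0.797), followed by Enpp4 (0.794) and Ocrl (0.770), and Elane and Prtn3 correlated at 0.794 with each other but at 0.378 and 0.317 with Ctsg. Elane was then most like Gstm2 (0.941), Slc36a4 (0.913) and Sgms2 (0.909), and Prtn3 like Anxa3 (0.808), Serpinb1a (0.800) and Trem3 (0.798). Ctsg was most like Gimap9 (0.812), Mpo (0.797) and Snord52 (0.770), and Ms4a3 like Lipg (0.770), Ctnnal1 (0.619) and Mpo (0.612). These correlations are descriptions, since arrays of a line or group are not independent.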

How the data were processed

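RNA of each sample was amplified and hybridised to an Affymetrix gene array, per the labels' protocols. The deposited values are on a log2 scale, as their range shows; no source used here gives the background correction, normalization or summarisation, and the submitters' processing notes name limma and R 3.1.1. Of 34760 probe sets, 21640 mapped to 1 symbol, 1321 to several and 11799 to none in the platform annotation; genes with several probe sets (954) were represented by the one with the highest mean. No gene was filtered out.

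A mean per group over all 26 arrays was estimated in limma 3.58.1 (R 4.3.3; lmFit and eBayes, with 18 residual and 5.32 prior degrees of freedom), and p-values were adjusted by Benjamini-Hochberg over 19937 genes in each of 14 comparisons. Genes with an adjusted p under 0.05 are said to be called. The fit was tested on simulated data. Intervals are 95% intervals of the fit. The labels name no separate animals for the sorted samples, and the spread behind their p-values may be technical. The number of arrays limits the precision, and 1 group had 2. The 5 genes, 6 gene lists and 8 marker lists were chosen with earlier results of these data known. From each list up to 5 members with the highest mean over all arrays are named, and others only where stated; the 3 most correlated genes and the 3 measured neighbours on each side are named.

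Replicate numbers pair cultured samples because the labels give the same cell line; correlations of their deviations from the group means ran from -0.057 to 0.40 over lines with and without dox. Numbers of sorted samples carry no such label and correlated at 0.02 to 0.06. Alternatives were quantile normalization, median centring, a filter leaving out dim genes (no group mean above the median of all probe sets), array weights, a trended prior, a mean over probe sets, fits of only the groups compared, blocks and leaving out each array. Protein sequences were not analysed here.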

Additional observations from a re-analysis of the deposited data

Results flagged for a closer look

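Of 15 sets of 4 values (5 genes in each of the groups with 4 arrays), 1 held a value far from the other three: Ctsg in sorted LT-HSC replicate 1, at 6.52, where the others lay between 5.51 and 5.58. The gap was 0.929 of the whole range of the group. Chance alone flags about 1 set in 20. On the same array Mpo was also the highest of its group (8.82), while Elane, Prtn3 and Ms4a3 were not. Late neutrophil markers averaged 6.25 on this array, within the 5.99 to 7.01 of the group.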

How the results depend on the processing

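The calls of all 5 genes in sorted GMP and in LT-HSC-derived lines (48 h, dox) over sorted LT-HSC, of Elane between origins without dox and of Mpo in GMP-derived lines with dox against sorted GMP held under every alternative run. Of 106 counts of called genes under other settings 95 stayed within 1.5 times, and of 99 with 1 array left out 95 did. The 106 include the mean over probe sets, which leaves the values of these genes unchanged. With array weights the count of the 5 genes went from 0 to 2 for dox at 72 h, from 0 to 1 for origin with dox, from 1 to 2 for LT-HSC-derived lines against sorted GMP and from 0 to 1 for time without dox. With dim genes left out it was 1 for origin with dox and 2 for GMP-derived lines without dox against sorted GMP, which a trended prior also gave. With only the compared groups fitted it was 1 for origin with dox, 2 for GMP-derived lines against sorted GMP with or without dox, and 3 for LT-HSC-derived lines against sorted GMP. With 1 array left out it ran from 0 to 1 for dox at 72 h, from 0 to 2 for GMP-derived lines without dox against sorted GMP, and from 0 to 1 for LT-HSC-derived lines against sorted GMP. Leaving out 1 of the 2 arrays with dox at 48 h leaves 1, assumed to vary like the other groups. The cause was not tested.

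Quantile normalization, median centring and the line as replicate block changed no call of the 5 genes. Nor did the mean over probe sets, which leaves their values as they were, since each had 1 probe set. With the line as replicate block the dox difference at 72 h was 0.43 for Elane (adjusted p = 0.124). With replicate numbers of sorted cells as a block 5 of 5 genes stayed called. Over all genes, the count for dox went from 88 to 298 at 48 h in LT-HSC-derived lines with the replicate block, to 145 with array weights, to 54 with only these groups and to between 10 and 87 with 1 array left out. At 72 h it went from 1425 to 2241 with array weights, to 647 with only these groups and to between 859 and 1329 with 1 array left out; in GMP-derived lines from 2179 to between 1224 and 2115. For origin it went from 421 to between 110 and 355 with dox, and from 1355 to 595 with only these groups and to between 743 and 1149 without dox. For LT-HSC-derived lines against sorted GMP it went from 2344 to between 1271 and 2097. For time without dox it went from 36 to 335 with array weights, 248 with the replicate block, 21 with median centring, 0 with only these groups and between 0 and 57; with dox from 0 to 2 with the replicate block. For the difference of dox effects between origins it went from 46 to 87, 102 (replicate block) and 21 (only these groups) and between 8 and 55, and between times from 0 to 1 with the replicate block, 1 with only these groups and between 0 and 2.

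Signs turned in 22 results, all of them small and not called, at most 0.139 in size after turning. With array weights, Prtn3 was 0.054 in GMP-derived lines without dox against sorted GMP, Ms4a3 0.010 for dox at 48 h in LT-HSC-derived lines, Ctsg 5.0e-05 for time with dox, and Mpo -0.010 for origin with dox, -0.042 for origin without and 0.032 for the difference of dox effects between origins. With median centring Mpo was -0.014 for origin with dox and -0.012 without. Under quantile normalization Mpo was -0.0047, -0.013 and 0.0081 for origin with dox, without and its difference, and Ms4a3 0.0072 for origin without dox. With the line as replicate block Ms4a3 was 0.023 for dox at 48 h in LT-HSC-derived lines and Mpo 0.042 for the difference between origins. With 1 array left out, values for dox at 48 h in LT-HSC-derived lines ran from -0.063 to 0.17 for Ctsg, -0.059 to 0.13 for Elane, -0.15 to 0.14 for Ms4a3 and -0.23 to 0.056 for Prtn3. In GMP-derived lines they ran from -0.27 to 0.027 for Elane, -0.0042 to 0.14 for Mpo and -0.24 to 0.0068 for Ms4a3. For origin with dox they ran from -0.20 to 0.025 for Ctsg, -0.045 to 0.058 for Mpo and -0.070 to 0.22 for Ms4a3, and without dox from -0.072 to 0.069 for Mpo and -0.15 to 0.091 for Ms4a3. Against sorted GMP, GMP-derived lines without dox ran from -0.19 to 0.11 for Elane and -0.11 to 0.088 for Prtn3. For time with dox they ran from -0.12 to 0.11 for Ctsg, -0.19 to 0.0057 for Elane, -0.21 to 0.089 for Ms4a3 and -0.16 to 0.13 for Prtn3. The difference of dox effects between origins ran from -0.063 to 0.079 for Mpo, -0.065 to 0.23 for Ms4a3 and -0.097 to 0.19 for Prtn3, and that between times from -0.0060 to 0.29 for Ms4a3.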

Other observations

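The transcription factors known to act on granule genes were not described above. Between sorted LT-HSC and GMP, 7 of 12 were higher and 1 lower, with a median of 0.29 against -0.01 over all genes. Spi1 (PU.1) was higher by 1.67 ± 0.12, Etv6 was lower (-0.58 ± 0.070), and Runx1 (-0.0025 ± 0.090), Myb (0.032 ± 0.11) and Cbfb (0.0038 ± 0.069) were not called. With dox, 0 of 12 were called in LT-HSC-derived lines at 48 h, 2 were higher and 2 lower at 72 h, and 2 were higher and 4 lower in GMP-derived lines. The shares of all genes called there were 0.441%, 7.15% and 10.9%. Myb was higher by 0.77 ± 0.13 at 72 h and by 0.66 ± 0.12 in GMP-derived lines, and Spi1 was lower by -0.57 ± 0.14 and -0.47 ± 0.13. Runx1 was lower by -0.47 ± 0.10 and -0.34 ± 0.097. Among the factors picked after their values were seen, Cebpe, which is known for secondary granule genes, was lower by -0.82 ± 0.12 in GMP-derived lines with dox, and Cebpa, known for the step from stem cell to GMP, was higher by 1.67 ± 0.15 in sorted GMP and was not called with dox at 72 h (0.09 ± 0.17) or in GMP-derived lines (0.11 ± 0.16).

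Receptors and markers of the GMP stage were higher in sorted GMP in 9 of 10 measured genes, Kit being the lower one (-1.40 ± 0.15). With dox they divided: in GMP-derived lines 1 was higher, Cd34 (2.07 ± 0.25), and 6 were lower, among them Csf2rb (-1.11 ± 0.19), a receptor chain for GM-CSF, and Igsf6 (-0.59 ± 0.12). At 72 h in LT-HSC-derived lines Kit was higher by 0.71 ± 0.175 and 3 genes were lower. At 48 h in LT-HSC-derived lines 2 were lower, Csf2rb (-1.03 ± 0.22) and Fcgr3 (-0.82 ± 0.15), the second named after its values were seen.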
